A study of Homo sapiens with 11 samples.

Results

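The heat shock proteins and their DNAJ co-chaperones were followed in Caki-1-SR cells, a human clear cell renal cell carcinoma line made resistant to sunitinib, after treatment with a combination of 4 drugs. The set holds every deposited gene symbol that begins with HSPA, HSPB, HSPD, HSPE or HSPH and a digit, with HSP90, or with DNAJA or DNAJB and a digit, together with BAG3 and HSF1, and leaves out symbols that end in P and a number. It comprises 54 of the 26485 gene symbols, and 1 symbol was left out as a pseudogene. All cells were of the Caki-1-SR subline (clone 1 per the methods) and were kept in 1 µM sunitinib, an inhibitor of receptor tyrosine kinases. The treated group (ODC, named ODCREMP in the study) received the ruthenium complex Rapta-C at 2 µM, the EGFR kinase inhibitor erlotinib at 1 µM, the glucose-lowering drug metformin at 1 µM and the plant lactone parthenolide at 5 µM. The control group (CTRL) is called untreated in one place of the study and sham-treated in another. At 24 h there were 3 CTRL and 3 ODC libraries, and at 2 h there were 2 CTRL and 3 ODC libraries. The labels do not say whether libraries of a group came from separate cultures, so p-values measure the spread between these libraries, which may be technical.

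Chaperones bind unfolded protein chains and keep them from clumping. HSP70 proteins do so in cycles of ATP hydrolysis that DNAJ proteins start and nucleotide exchange factors such as the HSP110 proteins end, whereas HSP90 proteins act later on kinases and receptors, and small heat shock proteins hold unfolded chains without ATP. When unfolded protein accumulates in the cytosol, the transcription factor HSF1 binds heat shock elements in the promoters of many of these genes and raises their transcription, and a separate response acts through ER stress elements on the chaperones of the endoplasmic reticulum (ER).

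Levels are given as counts per 1000000 counts of the library (CPM), scaled with edgeR's TMM factors. The 24 h libraries held 17785229 to 20882856 counts and the 2 h libraries 25782895 to 31118349 counts, and the members took between 1.55% and 2.05% of each library. All 10 epithelial and renal carcinoma markers examined, of which PAX2 was the lowest, had more than 3 counts in at least 1 library. At 24 h they summed to 4860 to 5620 CPM in CTRL and to 3880 to 4800 CPM in ODC, where all treated libraries were below CTRL, and at 2 h to 5490 to 5640 CPM in CTRL and 5710 to 5980 CPM in ODC, where all were above. Leukocyte markers summed to at most 2.76 CPM and endothelial markers to at most 1.28 CPM. COL1A2, which encodes a collagen chain typical of fibroblasts, stood at 37.6 CPM in CTRL library 1 at 2 h and at no more than 0.356 CPM in the 10 other libraries. DCN, another fibroblast gene, stood at 2.83 CPM in that library and at 0 to 0.108 CPM elsewhere. COL1A1, found in every library, stood at 237.6 CPM there and at 60.0 to 163.1 CPM elsewhere. PDGFRB was not raised there, at 3.52 CPM against 3.07 to 5.32 CPM in the other 2 h libraries and 6.54 to 49.1 CPM at 24 h. The 4 fibroblast markers summed to 281.5 CPM there, mostly from COL1A1, and to 66.6 to 169 CPM in the other libraries. Erythroid markers summed to at most 1.16 CPM. The part of these marker transcripts in the results was not tested.

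In HMOX1 and EGR1, libraries at 2 h did not all sit with their labels. HMOX1, the inducible heme oxygenase, stood at 21.0, 16.7 and 40.6 CPM in CTRL and at 98.3, 49.7 and 490 CPM in ODC at 24 h, and EGR1, an immediate early gene downstream of the EGFR, at 41.8, 21.2 and 18.9 CPM in CTRL and at 6.93, 7.73 and 2.45 CPM in ODC. At 2 h the library labelled CTRL 2 had 229 CPM of HMOX1 and 2.01 CPM of EGR1, against 21.9 and 40.8 CPM in the library labelled CTRL 1. The library labelled ODC 2 had 17.9 CPM of HMOX1 and 158 CPM of EGR1, against 329 and 3.91 CPM in ODC 1 and 104 and 6.63 CPM in ODC 3. For both genes, CTRL 2 and ODC 2 thus stood on the side that the other group has at 24 h. There the groups did not overlap in either gene, but neither had an adjusted p under 0.05 by edgeR's quasi-likelihood test. The adjusted p was 0.190 for HMOX1 and 0.107 for EGR1. No library was given another label, and results at 2 h are given with both libraries and, as an alternative added after their values were seen, without them.

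The promoter windows of the members were searched for exact matches to the elements named above. The RefSeq table (GRCh38.p14) holds 58 windows for 45 of the member genes, each from 250 bases before to 50 bases after an annotated start. A heat shock element was searched on both strands as neighbouring units of alternating orientation, that is GAANNTTC or TTCNNGAA for a pair of units (8 bases), with one more unit added in either direction for 3 units, so that a 3-unit match always holds overlapping pairs. At least 1 pair of units was found in 21 of the 58 member windows (36.2%) and in 13.5% of all 35116 windows of the same length. Matches of 3 units were found in 7 member windows (12.1%), those of DNAJA1, DNAJB6, HSP90AA1, HSP90AB1, HSPA6, HSPA8 and HSPD1, and in 0.49% of all windows. The ER stress element (CCAAT and CCACG separated by 9 bases) was found in the windows of HSPA5 and HSP90B1 and in 0.0769% of all windows. A match describes letters only and is not a measured binding site. Only exact letters within the window were searched, so a member without a match is not shown to lack an element. The following stretches are shown as examples, namely HSPA1A, HSPA1B, DNAJB4 and DNAJB1, whose libraries at 2 h are described further on, HSP90AA1 and HSPA8 as abundant cytosolic members with 3 units, and HSPA5 and HSP90B1 as the members with the ER stress element. Matched bases are in capitals. They run 5′ to 3′ on the strand of the gene, HSPA1A at chr6:31815407-31815474 (+), HSPA1B at chr6:31827603-31827670 (+), DNAJB4 at chr1:78004811-78004878 (+), DNAJB1 at chr19:14518407-14518504 (-), HSP90AA1 at chr14:102087075-102087162 (-), HSPA8 at chr11:123062149-123062386 (-), HSPA5 at chr9:125241361-125241439 (-) and HSP90B1 at chr12:103930186-103930369 (+).
HSPA1A: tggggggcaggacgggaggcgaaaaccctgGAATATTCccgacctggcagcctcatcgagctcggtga
HSPA1B: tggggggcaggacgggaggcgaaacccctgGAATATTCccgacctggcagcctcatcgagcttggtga
DNAJB4: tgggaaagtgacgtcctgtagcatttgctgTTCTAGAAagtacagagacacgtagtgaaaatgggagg
DNAJB1: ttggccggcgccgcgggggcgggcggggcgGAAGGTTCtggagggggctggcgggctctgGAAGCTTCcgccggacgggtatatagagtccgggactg
HSP90AA1: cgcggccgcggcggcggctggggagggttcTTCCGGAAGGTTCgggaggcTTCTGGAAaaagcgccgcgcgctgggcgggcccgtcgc
HSPA8: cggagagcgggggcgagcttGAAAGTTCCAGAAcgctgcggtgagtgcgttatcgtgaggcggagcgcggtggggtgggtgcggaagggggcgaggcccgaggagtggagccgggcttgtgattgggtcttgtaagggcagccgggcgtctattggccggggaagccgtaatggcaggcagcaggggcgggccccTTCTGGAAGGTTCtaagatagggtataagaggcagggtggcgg
HSPA5: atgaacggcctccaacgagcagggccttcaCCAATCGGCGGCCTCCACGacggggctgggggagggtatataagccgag
HSP90B1: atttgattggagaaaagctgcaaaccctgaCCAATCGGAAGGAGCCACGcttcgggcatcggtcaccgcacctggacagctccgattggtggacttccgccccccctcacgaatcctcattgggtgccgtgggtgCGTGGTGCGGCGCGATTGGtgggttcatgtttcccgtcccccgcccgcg

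The pair of units in the HSPA1A window, from base -106 to base -99 before the start, is the same stretch of chromosome 6 as the pair found in the window of HSPA1L, the neighbouring gene on the opposite strand. HSPA1A and HSPA1B are near-identical copies. Of all stretches of 100 bases in the HSPA1A transcript, 72.4% also occur in HSPA1B, and 68.9% of those in HSPA1B occur in HSPA1A, whereas neither shares one with HSPA1L. Reads from HSPA1A and HSPA1B cannot be fully told apart, and values of either are uncertain to that extent.

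**Figure D1:**
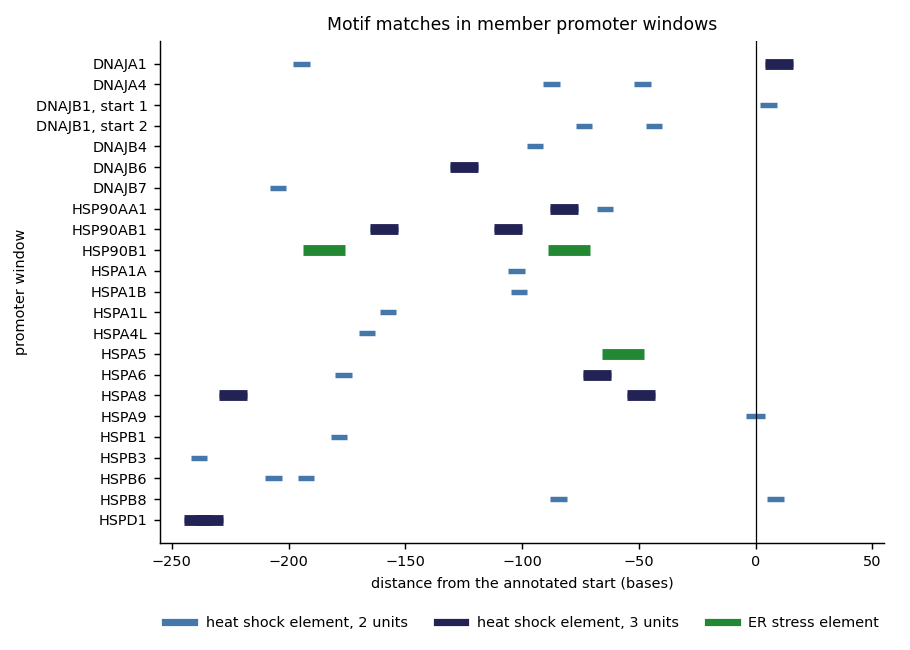
Motif matches in the promoter windows of members that hold any, plotted by distance from the start in bases. Light bars mark pairs of heat shock units, dark bars 3 units and green bars ER stress elements, and the last occur only at HSPA5 and HSP90B1.

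A minority of the members was not expressed at a measurable level. Of the 54 members, 7 had no count in any library, namely DNAJB3, DNAJB5-AS1, DNAJB8, DNAJB8-AS1, HSPB2-C11orf52, HSPB3 and HSPE1-MOB4, which allows up to 3 counts or 0.0964 to 0.169 CPM in a library (counting error only). A further 7, DNAJB7, HSP90AB4P, HSPA12B, HSPA7, HSPB2, HSPB7 and HSPB9, had no more than 3 counts in every library. DNAJA4, HSPA6, HSPB6 and HSPB8 had more but passed the filter on low counts at neither time. This left 35 members tested at 24 h and 36 at 2 h, the additional member being HSP90B2P, which the rule kept and which is a pseudogene in GENCODE. HSPA6, an HSP70 protein known for being made almost only under stress, had 1, 0 and 2 counts in CTRL and 0, 0 and 4 in ODC at 24 h. At 2 h it had 1 and 5 counts in CTRL and 14, 1 and 0 in ODC.

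Per kilobase of annotated exon, the most abundant member in CTRL at 24 h was HSP90AB1, the constitutive cytosolic HSP90, at 1119.7 CPM per kb. It was followed by HSP90AA1 at 881 CPM per kb and by HSPA8, the constitutive cytosolic HSP70, at 710.0 CPM per kb. HSPA5, the HSP70 of the ER, stood at 215 CPM per kb, HSPD1, the mitochondrial chaperonin, at 147 CPM per kb and DNAJA1, a co-chaperone of HSPA8, at 137 CPM per kb. In the other roles the most abundant members were HSPA4 of the HSP110 group at 89.5 CPM per kb, the small heat shock protein HSPB1 at 67.6 CPM per kb and DNAJB1, the main HSF1-inducible DNAJ protein, at 20.5 CPM per kb. BAG3, an exchange factor that directs clients to autophagy, stood at 37.1 CPM per kb and HSF1 at 17.5 CPM per kb. The lengths join all annotated exons of a gene, also those of rare transcripts, so this order depends on the annotation. By mean CPM in CTRL at 24 h, HSP90AA1 was highest at 4492 CPM, before HSPA8 at 3443 CPM and HSP90AB1 at 3337 CPM. HSP90B1 (1629 CPM) then stood above HSPA5 (1402 CPM) and DNAJB6 (218 CPM) above DNAJB1 (168 CPM). In bulk RNA, a change in the share of cells that express a gene and a change in the RNA per cell cannot be told apart.

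At 24 h no member was higher or lower in ODC by the test. None of the 35 members tested had an adjusted p under 0.05 by the quasi-likelihood test of edgeR, adjusted after Benjamini-Hochberg, against 24 of 12689 genes (0.189%), and the lowest adjusted p of a member was 0.442. At an unadjusted p under 0.05 there were 0 members, against 12.2% of all genes. The fitted differences were small, since the 95% interval lay within a 2-fold change in either direction for 33 of 35 members, against 83.0% of all genes. The median log2 fold change was -0.05 over the members and 0.00089 over all genes. The exceptions with a wider interval were DNAJB13 and DNAJB9.

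**Figure D2:**
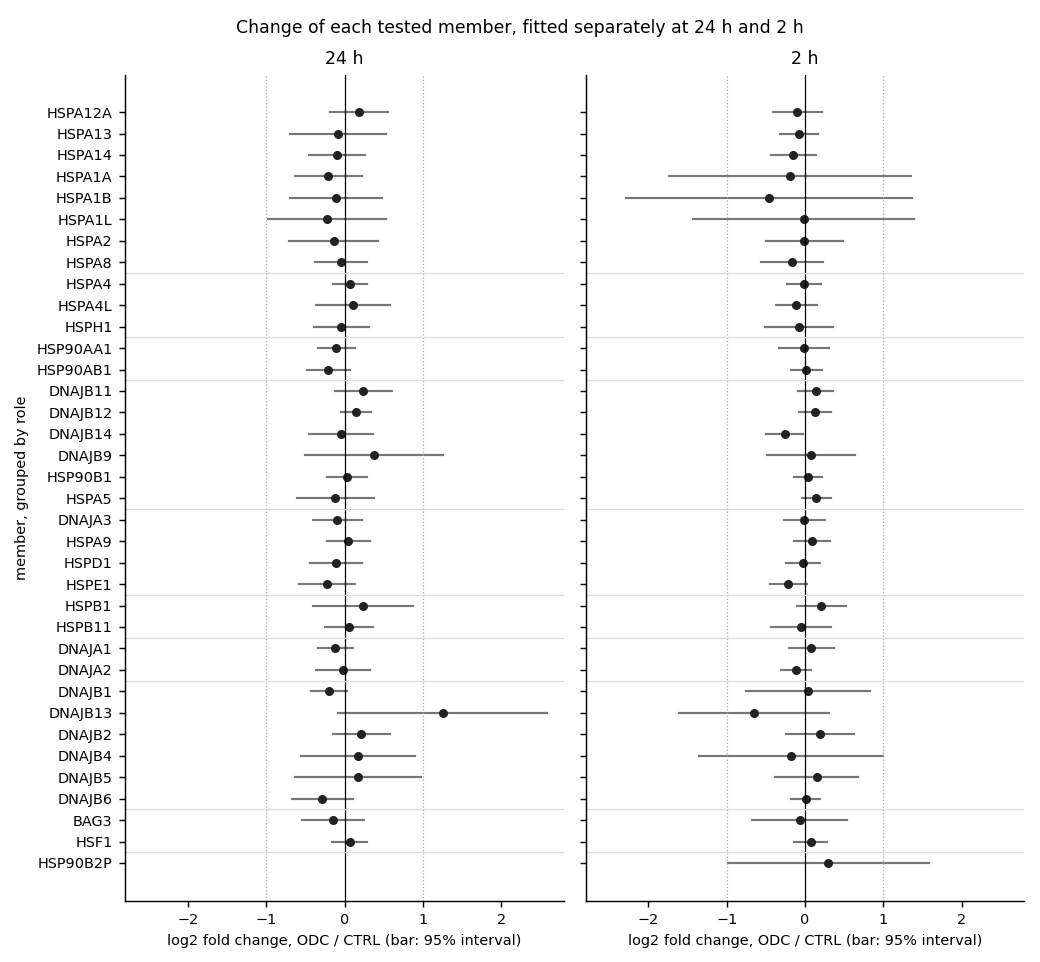
Log2 fold change of ODC against CTRL with its 95% interval for each member tested, at 24 h in the left panel and at 2 h in the right panel, with members grouped by role and dotted lines at a 2-fold change. At 24 h every interval holds 0, and at 2 h only that of DNAJB14 does not.

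The transcripts of the cytosolic HSP70 and HSP90 members overlapped between the groups at 24 h and did not pass the test. HSP90AB1 stood at 3702, 2943 and 3366 CPM in CTRL and at 2873, 2648 and 3155 CPM in ODC, and the groups overlapped. Its means were 3337 ± 380.2 CPM (SD, n = 3) and 2892 ± 254 CPM (SD, n = 3), and its log2 fold change was -0.21 (standard error, SE, 0.12, adjusted p = 0.550). HSPA8 stood at 3951, 2759 and 3619 CPM in CTRL and at 3506.5, 3100.5 and 3375 CPM in ODC, so that all treated libraries lay inside the CTRL range. The fitted log2 change was -0.05 with an interval from -0.38 to 0.28. The inducible HSPA1A stood at 63.1, 75.3 and 68.8 CPM in CTRL and at 48.0, 52.3 and 79.0 CPM in ODC. HSPA1B stood at 35.9, 37.1 and 38.3 CPM in CTRL and at 24.2, 28.0 and 50.6 CPM in ODC. For both copies, ODC 1 and 2 were below all CTRL libraries and ODC 3 above them. The log2 fold changes were -0.21 (SE 0.19, adjusted p = 0.720) and -0.11 (SE 0.25, adjusted p = 0.903). Of the 8 HSP70 members tested, 1 had a fold change above 1 and 7 had one below 1, and none passed the test. Over all genes, 6326 of 12689 had one below 1. The 8 include HSPA13, which is not cytosolic, and both HSPA1A and HSPA1B, which are not separate cases. HSPA4, an exchange factor of the HSP110 group, had a log2 fold change of 0.07 with an interval from -0.14 to 0.28.

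Of the ER members, HSPA5 and DNAJB9 were spread widely among the treated libraries. HSPA5 stood at 1508, 1288 and 1411 CPM in CTRL and at 1148, 956 and 1774 CPM in ODC. ODC 1 and 2 were below every CTRL library, and ODC 3 was above them. Its log2 fold change was -0.12 (SE 0.21, adjusted p = 0.878). DNAJB9, an ER co-chaperone of HSPA5, stood at 14.8, 12.5 and 15.9 CPM in CTRL and at 12.1, 11.6 and 32.3 CPM in ODC, again with ODC 3 apart from the rest. HSPA13, an HSP70-like protein of the microsomes, behaved likewise with 66.5, 47.1 and 108 CPM in ODC against 70.5 to 84.5 CPM in CTRL (this gene and DNAJB9, HSPA1A and HSPA1B were picked after their values were seen). DNAJB12, a co-chaperone in the ER membrane, stood at 74.6, 74.1 and 75.7 CPM in CTRL and at 80.2, 82.7 and 85.1 CPM in ODC. It was the only one of the 35 members whose ODC libraries were all above CTRL, which was the case in 9.42% of all genes, and no member had all of them below, which was the case in 8.51%. The fold change was 0.14 on the log2 scale (SE 0.08, adjusted p = 0.543).

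ODC library 3 also had the highest HMOX1 level of all libraries at 24 h, 490 CPM. Without it, 6 of 35 members (17.1%) had an unadjusted p under 0.05, which is near the 15.6% of all genes. Still none had an adjusted p under 0.05. The 6 members were HSPA1A (log2 fold change -0.46, adjusted p = 0.129), HSPA1B (-0.51, adjusted p = 0.120), BAG3 (-0.37, adjusted p = 0.188), HSPA5 (-0.42, adjusted p = 0.181) and HSPA13, which were lower in ODC 1 and 2, and DNAJB13 (1.67, adjusted p = 0.129), which was higher. Whether the HMOX1 level of ODC 3 has a part in this was not tested.

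The mitochondrial members did not pass the test either. Of the 8 small heat shock rows only 2 were tested, HSPB1 and HSPB11, and neither passed. HSPB11 is named IFT25 in GENCODE. HSPD1, which forms the chaperonin ring that folds proteins of the mitochondrial matrix, stood at 1229, 934 and 1209 CPM in CTRL and at 1066, 896 and 1169 CPM in ODC, and the groups overlapped. The log2 fold change was -0.11 (SE 0.14) for HSPD1 and -0.22 (SE 0.16) for HSPE1, the lid of the ring. HSPB1 stood at 99.8, 139.8 and 89.5 CPM in CTRL and at 116, 184 and 86.8 CPM in ODC, with a log2 fold change of 0.23 (SE 0.28, adjusted p = 0.804). HSPB8, which works with BAG3, was too low for the filter at 24 h, with 4, 4 and 2 counts in CTRL and 22, 8 and 19 counts in ODC, and the groups did not overlap. When every gene with at least 1 count was tested, 17624 in all, its fitted log2 fold change was 2.20 (SE 0.53, adjusted p = 0.118), which rests on a CTRL level near the floor.

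Among the cytosolic DNAJ proteins, DNAJA1 stood at 395, 327 and 374 CPM in CTRL and at 346, 326 and 337 CPM in ODC at 24 h. Its log2 fold change was -0.12 (SE 0.10, adjusted p = 0.685). DNAJB1 stood at 173, 180.2 and 151 CPM in CTRL and at 143, 142 and 154 CPM in ODC, where only ODC 3 reached the CTRL range. ODC minus CTRL was -0.20 on the log2 scale (SE 0.10, adjusted p = 0.464). DNAJB6, which suppresses aggregation of polyglutamine proteins, stood at 266, 177 and 210.5 CPM in CTRL and at 185, 149.98 and 202 CPM in ODC, with a log2 fold change of -0.28 (SE 0.17, adjusted p = 0.564). DNAJB11, an ER co-chaperone of HSPA5, had a log2 fold change of 0.24 (SE 0.16, adjusted p = 0.597). The largest fitted change was that of DNAJB13, a component of ciliary axonemes, which stood at 0.288, 0.626 and 0.498 CPM in CTRL and at 1.18, 1.84 and 0.384 CPM in ODC. These values rest on 6 to 12 counts in CTRL and 8 to 34 counts in ODC, and ODC 3 lay inside the CTRL range. The fitted log2 change was 1.25 (SE 0.58, adjusted p = 0.442).

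The regulators BAG3 and HSF1 did not pass the test at 24 h. HSF1 stood at 89.9, 95.8 and 93.4 CPM in CTRL and at 88.4, 99.99 and 104 CPM in ODC, and its log2 fold change was 0.06 with an interval from -0.16 to 0.29. BAG3 stood at 110.4, 91.0 and 103 CPM in CTRL and at 78.3, 78.9 and 118 CPM in ODC, and its log2 fold change was -0.15 with an interval from -0.54 to 0.25. HSF1 is held inactive by chaperones and acts after release and phosphorylation, so its transcript level is not a measure of its activity.

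**Figure D3:**
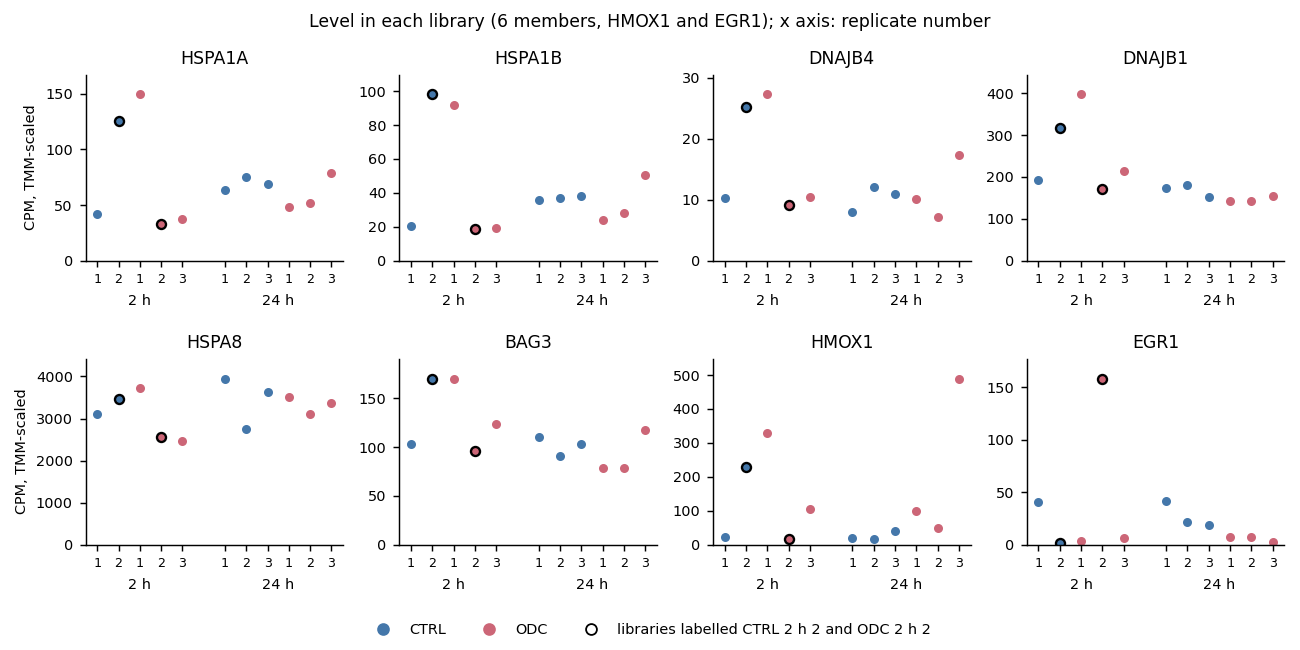
TMM-scaled CPM of HSPA1A, HSPA1B, DNAJB4, DNAJB1, HSPA8, BAG3, HMOX1 and EGR1 in each of the 11 libraries, with CTRL in blue, ODC in red and the libraries labelled CTRL 2 and ODC 2 at 2 h outlined. At 2 h the inducible members are high in CTRL 2 and ODC 1, as HMOX1 is, and low in the other libraries.

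At 2 h no member differed between the groups as labelled. None of the 36 members had an adjusted p under 0.05 by the quasi-likelihood test of edgeR, adjusted after Benjamini-Hochberg, and 0 of 13332 genes had one, while 312 genes (2.34%) had an unadjusted p under 0.05. By edgeR's likelihood ratio test 5 genes and by DESeq2 1 gene had an adjusted p under 0.05, and none of these was a member. Among the members, DNAJB14, an ER membrane co-chaperone, was the only one with an unadjusted p under 0.05. It stood at 34.6 and 36.9 CPM in CTRL and at 30.7, 28.9 and 29.9 CPM in ODC, and all ODC libraries were below CTRL. Its log2 fold change was -0.26 (SE 0.10, adjusted p = 1.00), and of all genes 0.870% were lower at an unadjusted p under 0.05. The ODC libraries were all below CTRL in 5 members (DNAJA2, DNAJB13, DNAJB14, HSPA4L and HSPE1), against 7.42% of all genes, and all above in 3 members (DNAJB12, HSP90B1 and HSPA5), against 7.89%.

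HSPA5 stood at 1197.5 and 1224 CPM in CTRL and at 1312, 1299 and 1398 CPM in ODC at 2 h, and its log2 fold change was 0.14 (SE 0.08). HSPE1 stood at 70.1 and 61.9 CPM in CTRL and at 58.6, 59.1 and 53.0 CPM in ODC, with a log2 fold change of -0.21 (SE 0.10). DNAJB12, whose ODC libraries were above CTRL at both times, had a log2 fold change of 0.12 (SE 0.09) at 2 h. DNAJB13 and HSPB1 had log2 fold changes of -0.65 (SE 0.41) and 0.21 (SE 0.14), and HSF1 had one of 0.07 (SE 0.09). Each of these 6 members had an adjusted p of 1.00.

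The spread at 2 h lay within the groups and was wide in HSPA1A, HSPA1B, HSPA1L, DNAJB4 and DNAJB1. These were picked for description after their values were seen. HSPA1A stood at 41.7 and 126 CPM in CTRL 1 and 2 and at 149, 33.2 and 37.6 CPM in ODC 1, 2 and 3. HSPA1B stood at 20.2 and 98.0 CPM in CTRL and at 91.7, 18.5 and 19.1 CPM in ODC. HSPA1L, another HSP70 gene of the same locus, stood at 1.04 and 2.68 CPM in CTRL and at 3.46, 1.07 and 1.00 CPM in ODC, on 27 to 109 counts. In all of them CTRL 2 and ODC 1 were high, the remaining libraries were low, and the labelled groups overlapped. DNAJB4, a cytosolic DNAJ protein, followed the same order with 10.2 and 25.2 CPM in CTRL and 27.2, 9.16 and 10.5 CPM in ODC. DNAJB1 stood at 192 and 316 CPM in CTRL and at 397, 171 and 215 CPM in ODC. CTRL 2 and ODC 1 were again the highest libraries.

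The pair CTRL 2 and ODC 1 was chosen after the levels of the members above were seen. Counts for this pair describe the pattern and do not test it. CTRL 2 and ODC 1 were both at least 2-fold above each of the 3 other libraries in 9 of 13332 genes (0.0675%). Of these, 4 were the members HSPA1A and HSPA1B, whose reads cannot be fully told apart, HSPA1L and DNAJB4. HMOX1 was another of the 9, at 229 and 329 CPM against 17.9 to 104 CPM. The same 4 members were found when at least 1.5-fold was asked for, together with 15 genes outside the set (0.143% of all genes in total). Taken by order alone, CTRL 2 and ODC 1 were the highest libraries in 15 of the 36 members and in 8.77% of all genes. Besides the 4 named and DNAJB1, these were BAG3, DNAJA1, DNAJB2, DNAJB5, DNAJB9, HSP90AA1, HSP90AB1, HSPA4, HSPA8 and HSPH1. In these the contrast was shallower. BAG3 stood at 103 and 169.9 CPM in CTRL and at 170.4, 95.9 and 123 CPM in ODC, and HSPA8 at 3103.5 and 3456 CPM in CTRL and at 3732, 2559 and 2473 CPM in ODC. HSF1 was not among them, with 80.1 and 86.1 CPM in CTRL and 83.3, 91.7 and 87.2 CPM in ODC. Replicate libraries generally differed by at least 2-fold in 2.5% to 7.6% of the genes, and CTRL 1 and 2 at 2 h did so in 5.63% of the genes and in 4 of the 36 members, all of them higher in CTRL 2.

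**Figure D4:**
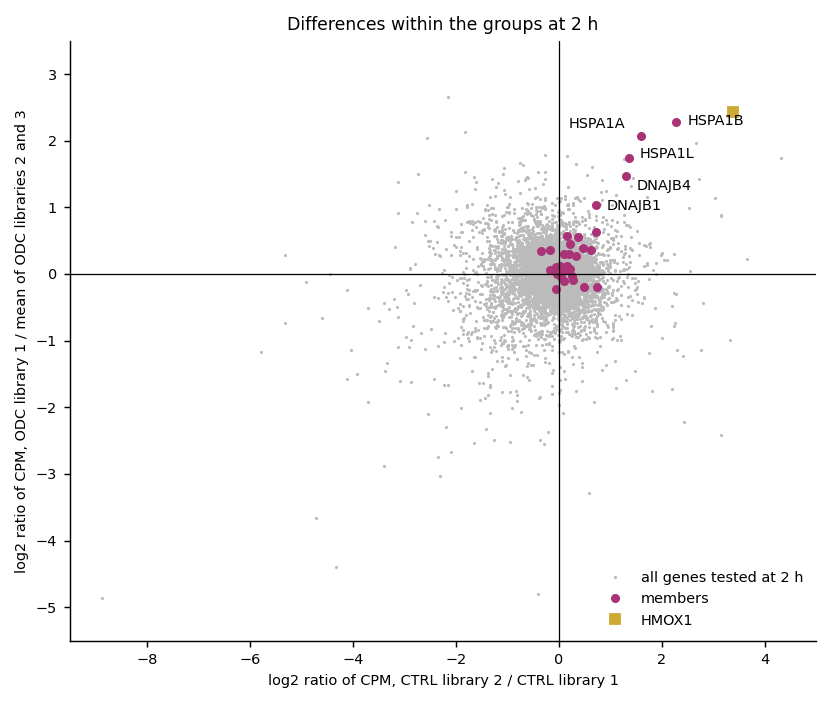
Log2 ratio of CTRL library 2 to CTRL library 1 (x axis) against the log2 ratio of ODC library 1 to the mean of ODC libraries 2 and 3 (y axis) at 2 h for all 13332 genes tested (grey), the members (purple) and HMOX1 (yellow). HSPA1A, HSPA1B, HSPA1L and DNAJB4 lie in the upper right corner beside HMOX1, and most members lie near the centre.

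With the libraries as labelled, the log2 fold changes of these members at 2 h carried wide errors. They were -0.19 (SE 0.67) for HSPA1A, -0.46 (SE 0.79) for HSPA1B, -0.02 (SE 0.61) for HSPA1L, -0.18 (SE 0.51) for DNAJB4, 0.04 (SE 0.34) for DNAJB1, -0.07 (SE 0.26) for BAG3 and -0.17 (SE 0.17) for HSPA8. Without the libraries labelled CTRL 2 and ODC 2, the difference turned to higher in ODC for HSPA1A (1.18, adjusted p = 0.345), HSPA1B (1.47, adjusted p = 0.252), HSPA1L (1.11, adjusted p = 0.653), DNAJB4 (0.90, adjusted p = 0.419) and BAG3 (0.53, adjusted p = 0.247). In that fit 7 of 38 members, all higher in ODC, had an unadjusted p under 0.05 against 8.93% of all genes, and none had an adjusted p under 0.05, whereas 182 of 13690 genes had one. They were BAG3, DNAJB1, DNAJB2, DNAJB4, DNAJB9, HSPA1A and HSPA1B. In each of these 7 members CTRL 2 was the higher CTRL library and ODC 2 the lowest ODC library. In HSPA1L CTRL 2 was the higher CTRL library too. Leaving both out thus raises ODC against CTRL in these members by the choice of libraries. Their direction and number in this fit are therefore no test of an effect, and the 8.93% counts both directions. The fit has CTRL 1 as its only control, the library with COL1A2 and DCN, and assumes that it varies as the treated libraries do. ODC 3 stayed low in HSPA1A, HSPA1B and DNAJB4 although its HMOX1 and EGR1 levels, 104 and 6.63 CPM, were on the side of ODC.

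**Figure D5:**
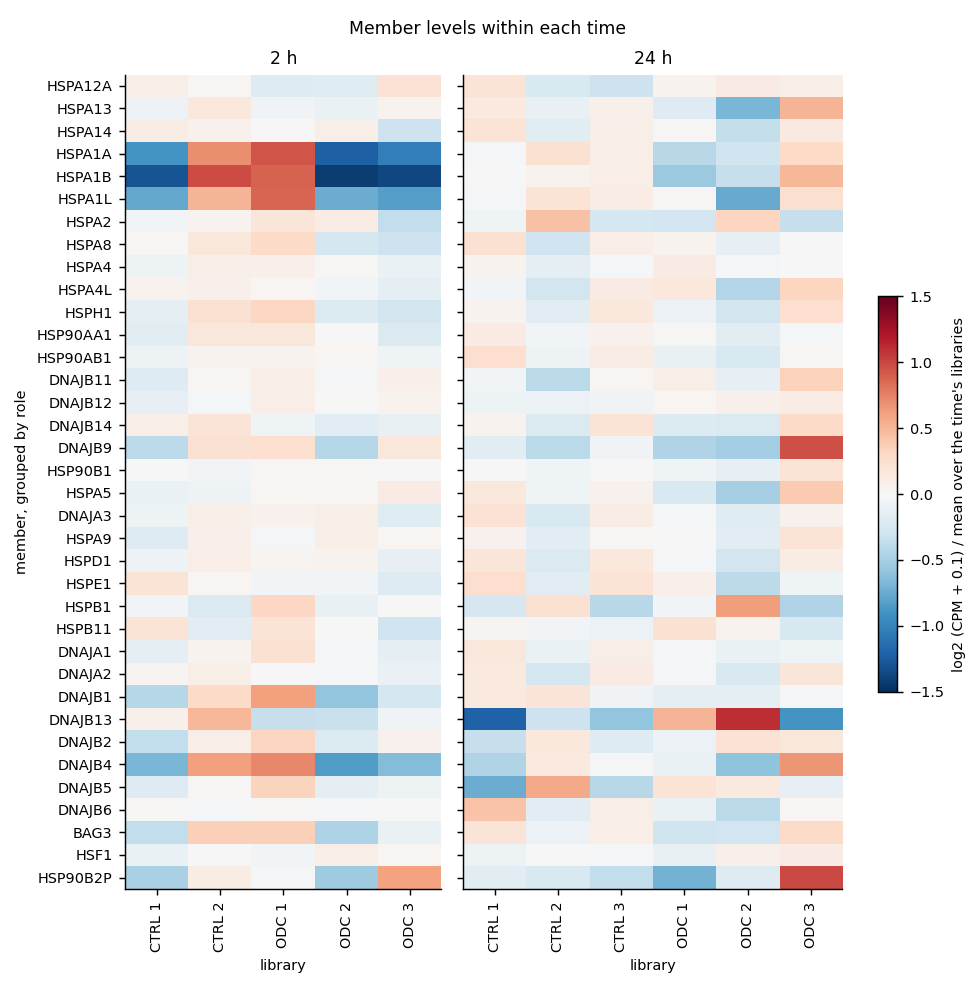
Heat map of the members tested (rows, grouped by role) in each library (columns) at 2 h and at 24 h, coloured by the log2 ratio of CPM + 0.1 to its mean over the libraries of that time. At 2 h CTRL 2 and ODC 1 are red in HSPA1A, HSPA1B, HSPA1L and DNAJB4, and at 24 h ODC 3 is red in DNAJB9, HSPA13, HSPA5 and HSPA1B.

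The difference between the effect at 24 h and that at 2 h passed the test in none of the 37 members of the joint fit (adjusted p under 0.05 in 2 of 13333 genes, 0.0150%). The 95% interval of the difference lay within a 2-fold change for 28 of 37 members, against 70.3% of all genes. At an unadjusted p under 0.05 there were 2 members, against 5.93% of all genes. Both had the higher value at 24 h, as 3.17% of all genes did, and none had the lower, as 2.77% did. DNAJB13 had a log2 difference of 1.89 (SE 0.76, adjusted p = 0.762), with the low counts given above and 11 to 20 counts at 2 h. HSPB8 (adjusted p = 0.842) had 2 and 3 counts in CTRL and 2, 0 and 4 in ODC at 2 h, at the floor. It passed the filter of the joint fit only through ODC at 24 h, with 22, 8 and 19 counts. Its higher value there was thus a condition of being tested and is no support for a difference. HSPA1A and HSPA1B differed by -0.03 (SE 0.79) and 0.34 (SE 0.95). The titles of the 2 h and the 24 h libraries name different months, so that levels at 2 h and 24 h carry time and month together. HSPA12A, a distant relative of the HSP70 proteins, had between 73.9 and 98.3 CPM in the 5 libraries at 2 h and between 11.7 and 16.7 CPM in the 6 at 24 h, and time and month cannot be told apart in it.

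Other genes of the protein folding network were examined in 8 lists. At 24 h no list gene had an adjusted p under 0.05, and the list with most genes at an unadjusted p under 0.05 was that of other textbook HSF1 targets, with 4 of 11 higher and 1 of 11 lower, against 7.20% and 5.04% of all genes. CLU, an extracellular chaperone, stood at 1.87, 1.83 and 1.94 CPM in CTRL and at 6.15, 5.19 and 4.13 CPM in ODC. All ODC libraries were above CTRL. Its log2 fold change was 1.45 (SE 0.22, adjusted p = 0.0655). It had an adjusted p under 0.05 by edgeR's likelihood ratio test (2.2e-05) and by DESeq2 (1.46e-04). By the quasi-likelihood test it had one when every gene with at least 1 count was tested (0.0317) and without ODC 3 (0.0339). With any other single library left out, the adjusted p by that test was 0.119 to 0.295. At 2 h the log2 fold change of CLU was -0.09, and the groups overlapped. CRYAB, a small heat shock protein whose symbol is outside the set, stood at 0.288, 0.574 and 0.332 CPM in CTRL and at 0.836, 3.68 and 0.721 CPM in ODC. These values rest on 6, 11 and 6 counts in CTRL and on 17, 68 and 15 counts in ODC. Its log2 fold change was 2.10 (SE 0.72, adjusted p = 0.289). Without ODC 2, which had the highest level, it was 0.95. IER5L, also among the 4 higher ones, had overlapping groups and a log2 fold change of 0.63 (SE 0.27, adjusted p = 0.408, picked after its values were seen). CACYBP, a partner of a ubiquitin ligase, had a log2 fold change of -0.26 (SE 0.11, adjusted p = 0.402).

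The other lists are also to be read against the 7.20% of all genes that were higher and the 5.04% that were lower at an unadjusted p under 0.05 at 24 h. Of 26 DNAJC genes tested, 2 were higher (DNAJC16 and DNAJC25) and 1 lower by this measure. The lower one was DNAJC9, a chaperone of histones, at 142, 132 and 137 CPM in CTRL and 109.8, 116 and 110.1 CPM in ODC, with a log2 fold change of -0.29 (SE 0.08, adjusted p = 0.223). Of 16 HSP90 co-chaperones, 1 was higher, CHORDC1 (0.39, adjusted p = 0.293). Of 12 exchange factors and partners of HSP70, SIL1, an exchange factor of HSPA5, was higher (0.26, adjusted p = 0.270) and BAG4 lower (-0.26, adjusted p = 0.378). Of 14 ER stress chaperones and regulators, CANX, a lectin chaperone, was higher (0.38, adjusted p = 0.267) and XBP1, a transcription factor of the unfolded protein response, lower (-0.40, adjusted p = 0.213). HSF4, a relative of HSF1, was the 1 of 4 other HSF family genes with an unadjusted p under 0.05 (0.68, adjusted p = 0.280). None of the 14 genes of the cytosolic chaperonin and prefoldin and none of the 6 mitochondrial stress genes had an unadjusted p under 0.05. At 2 h the genes with an unadjusted p under 0.05 were FKBP8, HSPBP1, IER5L and SDF2L1, all higher in ODC and each with an adjusted p of 1.00, against 1.47% of all genes.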

How the data were processed

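Stranded mRNA libraries (11) of Caki-1-SR cells were sequenced with single-end reads. Per the methods and the labels, the authors aligned reads to hg38 with STAR (2.7.0f in the labels) and assigned them to genes with HTSeq 0.9.1. What the authors deposited are raw counts of 26485 gene symbols in 2 tables, one per time, without normalization. Library totals and floors are given in the text, and 3 counts were taken as the floor.

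From these counts ODC was compared with CTRL separately at each time with edgeR 4.0.16 in R 4.3.3 (earlier quasi-likelihood method, two-sided, TMM factors 0.965 to 1.02, filterByExpr at its default minimum of 10 counts per library and 15 in total, Benjamini-Hochberg adjustment over all genes tested). All 11 libraries were fitted together to test the difference between times. The labels share no replicate numbers between groups, so libraries were numbered in accession order and left unpaired. Replicates differed by more than sampling noise (chi-square of 19.5 to 61.5 per gene), and each was counted as 1 sample. Members, lists and tests were chosen with earlier results of these data known. Named by rule were members with an adjusted p under 0.05, the 6 with the smallest p at each time, HSF1, BAG3, the most abundant member of each role, and up to 4 genes per list with an unadjusted p under 0.05. The values of 1 list gene named by this rule are not reported here. Exon lengths are from GENCODE release 44 (52 symbols matched directly, 2 by an older symbol) and promoters from RefSeq. Alternatives were other filters, scalings and tests (DESeq2 1.42.0 among them), HSPA1A and HSPA1B summed, a joint fit and each library left out. Scripts were tested on simulated data. Figures were drawn with matplotlib 3.10.9.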

Additional observations from a re-analysis of the deposited data

How the results depend on the processing

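No member had an adjusted p under 0.05 under any alternative run, at either time or in the difference between times. Among the values of single genes, 484 of 494 at 24 h, 267 of 287 at 2 h and 69 of 80 for the difference kept their direction and their side of the threshold. CLU passed it at 24 h under 4 alternatives, which are given above.

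At 24 h the number of members with an unadjusted p under 0.05, 0 as reported, was 2 when every gene with at least 1 count was tested, 1 by the likelihood ratio test, 2 in the joint fit and between 0 and 6 when single libraries were left out, the 6 without ODC 3. Leaving out single libraries turned the direction of small changes, with log2 fold changes from -0.19 to 0.051 for HSPA8, from -0.42 to 0.057 for HSPA5, from -0.12 to 0.45 for HSPB1, from -0.51 to 0.086 for HSPA1B and from -0.28 to 0.62 for DNAJB9.

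At 2 h the number was 1 as reported, 0 by the likelihood ratio test, 0 in the joint fit, from 0 (without CTRL 1 or ODC 2) to 3 (HSPA1A, HSPA1B and HSPA8, lower without ODC 1) with single libraries left out, and 7 without CTRL 2 and ODC 2. Without these libraries the log2 fold change was 0.53 for BAG3, 0.012 for HSPA8, 1.18 for HSPA1A, 1.47 for HSPA1B, 1.11 for HSPA1L and 0.90 for DNAJB4. This rise follows from the choice of libraries, as described above, and tests no effect. With single libraries left out the log2 fold change ran from -0.39 to 0.35 for BAG3, from -1.24 to 0.83 for HSPA1A, from -1.65 to 1.11 for HSPA1B, from -0.85 to 0.84 for HSPA1L, from -0.86 to 0.63 for DNAJB4 and from -0.40 to 0.46 for DNAJB1. For these genes except BAG3 the lowest value is the one without ODC 1, and in BAG3 it is the one without CTRL 1. The highest is the one without CTRL 2 in each.

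For the difference between times the number was 2 as reported. It was 1 when every gene with at least 1 count was tested (4.87% of all genes) and 0 with more than 1 CPM in at least 3 libraries (5.95%). It was 1 with library size only (5.94%), 1 with the newer quasi-likelihood method (5.96%) and 1 with DESeq2 (5.93%). With a single ODC library or a single 24 h CTRL library left out it ran from 0 to 2, against 4.07% to 7.86% of all genes. The difference was 0.11 for HSPA1A and HSPA1B summed, ran from -1.05 to 1.03 for HSPA1A and from -1.23 to 1.54 for HSPA1B with single libraries left out, and was -1.60 for HSPA1B without CTRL 2 and ODC 2. The cause of these changes was not tested.

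With 2 CTRL libraries at 2 h, leaving one out leaves a single control whose spread is assumed to be that of ODC. No paired analysis was made, because CTRL and ODC libraries have no common replicate numbers in the labels. At 24 h CTRL and ODC alternate in the numbers of the titles, and the labels do not say whether neighbouring libraries belong together. The calls at both times therefore rest on unpaired fits. Genes under the floor of 3 counts could not be compared at this depth.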
